A study of Mus musculus with 12 samples.

Results

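The MHC class II genes are described here across bone endothelial cells (BECs) of female and male mice aged 2 and 65 weeks. The 10 genes were taken by name from the 37620 genes of the count table: H2-Aa, H2-Ab1, H2-Eb1, Cd74, Ciita, H2-DMa, H2-DMb1, H2-DMb2, H2-Oa and H2-Ob. Each was found under 1 Ensembl identifier, and all 10 passed the filter on low counts in every comparison. The study asked how the transcriptome of BECs differs between the sexes and changes with age. RNA was sequenced from BECs freshly isolated from the tibia of c57/Bl6 mice and selected on endomucin, a surface sialomucin of capillary and venous endothelium. The study's methods describe bones from tibia and femur, with positive selection on endomucin-coated beads. For each set, the 3 samples with the best RNA quality went on to sequencing. The 4 groups were F.2weeks (females, 2 weeks), M.2weeks (males, 2 weeks), F.65weeks (females, 65 weeks) and M.65weeks (males, 65 weeks), with 3 libraries each. The labels give no transgene, mutation or treatment for any of them. They do not say whether a library came from 1 mouse or from pooled mice, so that p-values measure the spread between libraries. Levels are in CPM, the count of a gene as a share of all counts of its library.

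MHC class II molecules display peptides from endosomes to CD4+ T cells. H2-Aa encodes the alpha chain and H2-Ab1 the beta chain of the I-A molecule, and H2-Eb1 encodes the beta chain of I-E. Cd74 encodes the invariant chain, which fills the groove during assembly and carries the complex to endosomes. There H2-DM, made of H2-DMa with H2-DMb1 or H2-DMb2, exchanges the invariant chain remnant for peptide, and H2-O, made of H2-Oa and H2-Ob, holds H2-DM back. Ciita encodes the transactivator that is recruited by factors bound to the X and Y boxes of class II promoters. B cells, dendritic cells and macrophages are the main cells that express the family, and endothelial cells can express it in response to interferon gamma.

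Of the 10 genes, 8 lie in the MHC on mouse chromosome 17, whereas Ciita and Cd74 lie elsewhere. On the GRCm39 build (GENCODE M39) the chromosome 17 genes run from H2-Oa at chr17:34311314-34314328 through H2-DMa (34338515 to 34358958), H2-DMb2 (34362197 to 34370529), H2-DMb1 (34372046 to 34379204), H2-Ob (34457836 to 34473388), H2-Ab1 (34476663 to 34488393) and H2-Aa (34493404 to 34506798) to H2-Eb1 at chr17:34504236-34535648. H2-Aa is on the minus strand and the others on the plus strand. Ciita lies at chr16:10297923-10347694 on the plus strand. H2-Aa and H2-Eb1 overlap by 2563 bases on opposite strands in this annotation, H2-DMa overlaps Brd2 by 3231 bases and Ciita overlaps Dexi by 29935 bases, also on opposite strands. Whether the counting used strand is not given in the sources used here, so that these 4 genes could share reads with the partners.

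The promoters show the sequence that Ciita-dependent genes share, and the windows below are given because 6 of the members hold the same Y box letters. RefSeq promoters (250 bases before to 50 after the start, GRCm38.p6) were matched for 7 of the members, all on chromosome 17. The set held no promoter of H2-Ab1 or Ciita. Cd74, on another chromosome, was left out of the counts of members below, which cover none of these genes. It is not among the 20 genes with both motifs in order that are given below. The letters TGATTGG, the inverted CCAAT of the Y box, were found on either strand in 6 of these 7 genes, against 7.82% of 32851 promoters of the same length. An X box core written AACNNATG was found in 4 of the 7 genes, against 8.86% of promoters. Both motifs in order on 1 strand, with the core at most 40 bases before the Y box, were found in H2-DMb1, H2-DMb2, H2-Ob and H2-Eb1 and in 0.0609% of all promoters, those of 20 genes. The letters were chosen after these promoters had been read, so the shares are a description. Each window of 60 bases is written 5′ to 3′ on the strand of its gene, with the Y box and, where found, the X core in capitals.
H2-DMb1 (plus strand, chr17:34153085-34153144): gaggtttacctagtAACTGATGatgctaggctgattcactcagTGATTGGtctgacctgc
H2-DMb2 (plus strand, chr17:34145114-34145173): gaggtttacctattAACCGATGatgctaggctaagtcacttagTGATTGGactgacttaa
H2-Eb1 (plus strand, chr17:34305763-34305822): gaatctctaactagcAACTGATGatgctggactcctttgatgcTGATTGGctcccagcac
H2-Ob (plus strand, chr17:34238803-34238862): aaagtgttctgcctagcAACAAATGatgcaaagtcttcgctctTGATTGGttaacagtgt
H2-Aa (minus strand, chr17:34287857-34287916): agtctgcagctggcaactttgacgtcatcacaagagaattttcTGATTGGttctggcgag
H2-Oa (plus strand, chr17:34092291-34092350): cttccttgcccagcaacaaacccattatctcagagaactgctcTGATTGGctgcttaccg

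The first base of the Y box lay 45 to 92 bases before the annotated start in these 6 promoters. The distance from the first base of the X core to that of the Y box was 29 bases in H2-DMb1 and H2-DMb2, 28 in H2-Eb1 and 26 in H2-Ob. The windows of H2-DMb1 and H2-DMb2, genes of a tandem pair, were identical at 51 of 60 bases (85%). The 2 promoters listed for H2-DMa held neither motif in these letters. Among the other 16 genes with both motifs in order, 6 were tested in both sexes, and H2-Eb2 and H2ac10 were called higher at 65 weeks in each, 2 of 6 where 30.2% of all genes were called higher in females and 27.0% in males. H2-Eb2 is a neighbouring class II gene, and H2ac10 encodes a histone H2A.

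The libraries held 26044743 to 44569600 counts. Endothelial markers were present at 2 weeks and low at 65 weeks. The summed level of 14 endothelial genes was 3176 to 5508 CPM in F.2weeks and 4559 to 5759 CPM in M.2weeks, and 249 to 325 CPM in F.65weeks and 217 to 289.7 CPM in M.65weeks. None of the 14 was at 0 in any library, and all 14 fell with age in both sexes. Emcn itself, the gene of the selection marker, was at 115 to 181 CPM in F.2weeks and 154 to 227 CPM in M.2weeks. It was at 2.80 to 6.98 CPM in F.65weeks and 4.59 to 6.51 CPM in M.65weeks. One library stood apart. M.65weeks replicate 3 held 117 counts of Xist, the RNA of the inactive X chromosome, against 3 and 0 in the other 65-week males and 3527 to 4442 in the 65-week females. Its class II levels were 1.58 to 4.72 times the mean of the other 2 males of its group, so class II results on 65-week males are also given without it, and for the gene lists the counts in males are given both ways.

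Every class II gene was higher at 65 than at 2 weeks in both sexes. All 10 were called higher in females (edgeR quasi-likelihood test with Benjamini-Hochberg adjustment over all genes, threshold 0.05), where 30.2% of the 15120 genes tested were called higher. All 10 were also called higher in males, where 27.0% of 14959 genes were. Scaling to library totals alone lowered the share of higher calls among all calls in females from 4568 of 9030 genes to 3668 of 9119, and all 10 members were still called higher. The lowest 65-week library was above the highest 2-week library for each of the 10 in both sexes, against 27.6% of genes in females and 26.0% in males. Without replicate 3 of the 65-week males all 10 were still called higher in males, where 29.3% of 15437 genes were. The median change of the 10 was 9.44-fold in females and 9.79-fold in males (6.78-fold without that replicate), beside a median log2 fold change of 0.01 over all genes in each sex. The summed class II level was 806 to 966 CPM in F.2weeks and 652 to 811 CPM in M.2weeks. It was 7494 to 9644 CPM in F.65weeks and 5241, 5519 and 11719 CPM in M.65weeks, so that in the last of these 1.17% of all counts were class II. In RNA of selected cells in bulk, more cells of a type and more RNA per cell cannot be told apart. Several lists of cell markers rose with age beside the family. Of 13 B cell markers, 12 were called higher at 65 weeks in each sex, all but Ebf1. Without replicate 3, 12 were called higher in males and Ebf1 lower (log2 −0.99, edgeR adjusted p = 0.00581). Neutrophil markers were called higher for 9 of 10 genes in females and 10 of 10 in males. For T cell markers it was 9 and 8 of 10, and for monocyte and macrophage markers 11 and 7 of 13. All 14 endothelial markers were called lower in each sex. The part of any of these cells in the result was not tested.

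**Figure D1:**
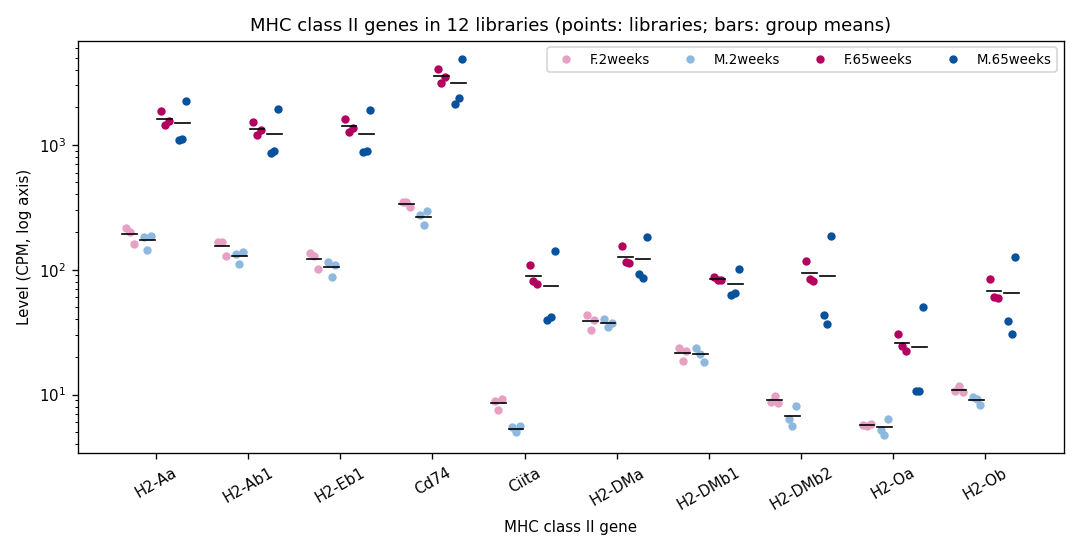
Levels of the 10 class II genes in CPM (log axis), with 1 point per library and a bar at the mean of each group of 3. All 65-week points lie above all 2-week points for every gene, and M.65weeks replicate 3 is the highest point of each gene.

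The chains of I-A were measured at 111 to 217 CPM at 2 weeks and at 865 CPM or more at 65 weeks. H2-Aa was at 217, 199 and 161 CPM in F.2weeks, 184, 144 and 187 CPM in M.2weeks, 1859.8, 1442 and 1549 CPM in F.65weeks and 1093, 1110.4 and 2261 CPM in M.65weeks. The 2-week libraries of both sexes lie close together, and the 65-week libraries are all several times higher. The change was 9.23-fold in females (log2 3.21, SE 0.14, edgeR adjusted p = 2.27e-06) and 9.30-fold in males (log2 3.22, SE 0.29, adjusted p = 6.24e-05). H2-Ab1 was at 165, 166 and 129 CPM in F.2weeks, 134, 111 and 138 CPM in M.2weeks, 1529, 1206 and 1315 CPM in F.65weeks and 865, 887 and 1932 CPM in M.65weeks. Its pattern over the libraries followed that of its partner chain, with replicate 3 of the 65-week males above every other library. The change was 9.67-fold in females (log2 3.27, SE 0.13, adjusted p = 1.80e-06) and 10.3-fold in males (log2 3.37, SE 0.31, adjusted p = 7.25e-05). Without that replicate the male change was 2.81 (SE 0.13) for H2-Aa and 2.91 (SE 0.12) for H2-Ab1 on the log2 scale, and both were called.

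H2-Eb1 had the largest change of the 10 in females. It was at 136, 129 and 101 CPM in F.2weeks, 116, 87.1 and 109 CPM in M.2weeks, 1614, 1255 and 1372 CPM in F.65weeks and 870.2, 894 and 1901 CPM in M.65weeks. In each sex the age groups are far apart, and at 2 weeks the sexes overlap. The change was 12.8-fold in females (log2 3.67, SE 0.14, adjusted p = 1.79e-06) and 12.6-fold in males (log2 3.65, SE 0.31, adjusted p = 4.99e-05), and 3.21 (SE 0.13) on the log2 scale in males without replicate 3. H2-Ea, which encodes the alpha chain of I-E and lacks a working promoter in the C57BL/6 strain, had 0 counts in all 12 libraries. At these depths, 0 counts allows at most 0.115 CPM in any library, taking 3 counts as the limit and counting error only.

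Cd74, the invariant chain, had the highest level of the members in every library. Its gene lies at chr18:60936899-60945731 on the plus strand (GRCm39). Cd74 was at 347, 347 and 319.9 CPM in F.2weeks, 275, 228 and 293 CPM in M.2weeks, 4056, 3140.1 and 3497 CPM in F.65weeks and 2125, 2356 and 4835 CPM in M.65weeks. All 3 2-week males lie below all 3 2-week females, and at 65 weeks 2 of the males do. The change with age was 11.6-fold in females (log2 3.53, SE 0.11, adjusted p = 1.05e-06) and 12.5-fold in males (log2 3.65, SE 0.31, adjusted p = 5.06e-05), or 3.20 (SE 0.14) on the log2 scale without replicate 3. Cd74 made up 34.4% to 39.7% of the summed class II level at 2 weeks and 40.5% to 42.8% at 65 weeks.

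Ciita, the transactivator, had low counts at 2 weeks (202 to 355 per library) and rose with age in both sexes. It was at 8.82, 7.45 and 9.27 CPM in F.2weeks, 5.45, 4.98 and 5.56 CPM in M.2weeks, 110.0, 81.1 and 76.9 CPM in F.65weeks and 39.2, 41.8 and 142 CPM in M.65weeks. The males are below the females at 2 weeks without overlap, and at 65 weeks they lie on both sides of them. The change was 11.5-fold in females (log2 3.52, SE 0.17, adjusted p = 3.02e-06) and 14.8-fold in males (log2 3.89, SE 0.50, adjusted p = 0.000431). Without replicate 3 it was 3.05 (SE 0.11) on the log2 scale in males, against 3.89 with it.

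The genes of H2-DM fell into a pair with the smallest changes of the family in females, H2-DMa and H2-DMb1, and H2-DMb2, with a change near that of Cd74. H2-DMa was at 43.1, 32.6 and 39.6 CPM in F.2weeks, 39.9, 34.9 and 37.5 CPM in M.2weeks, 154, 116 and 112 CPM in F.65weeks and 92.8, 86.2 and 183 CPM in M.65weeks. It rose 3.63-fold in females (log2 1.86, SE 0.16, adjusted p = 3.19e-05) and 3.46-fold in males (log2 1.79, SE 0.26, adjusted p = 0.000775). Its 2-week levels are alike in the sexes. H2-DMb1 was at 23.5, 18.7 and 22.3 CPM in F.2weeks, 23.5, 21.2 and 18.2 CPM in M.2weeks, 88.0, 83.3 and 82.8 CPM in F.65weeks and 63.2, 65.0 and 101 CPM in M.65weeks. The change was 4.32-fold in females (log2 2.11, SE 0.11, adjusted p = 3.72e-06) and 3.92-fold in males (log2 1.97, SE 0.19, adjusted p = 8.17e-05). Replicate 3 stood out least for this gene, at 1.58 times the mean of the other 2 males of its group.

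H2-DMb2 was at 8.63, 9.80 and 8.49 CPM in F.2weeks, 6.35, 5.58 and 8.12 CPM in M.2weeks, 118, 84.9 and 81.3 CPM in F.65weeks and 43.4, 36.7 and 186 CPM in M.65weeks. The age groups are far apart, and the 65-week males spread most. The change was 11.6-fold in females (log2 3.53, SE 0.16, adjusted p = 2.36e-06) and 14.1-fold in males (log2 3.81, SE 0.62, adjusted p = 0.00147). Without replicate 3 the male changes were 1.38 (SE 0.09) for H2-DMa, 1.73 (SE 0.12) for H2-DMb1 and 2.72 (SE 0.17) for H2-DMb2 on the log2 scale, all called. The H2-DM beta genes are alike in sequence: 179 of the 1305 stretches of 100 bases in the longest H2-DMb1 transcript (13.7%) occur whole in that of H2-DMb2, so that reads there could be assigned to either gene or dropped.

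Of the genes of H2-O, which is best known from B cells, H2-Oa had the lowest counts of the family at 65 weeks. H2-Oa was at 5.66, 5.60 and 5.85 CPM in F.2weeks, 5.23, 4.76 and 6.38 CPM in M.2weeks, 30.4, 24.3 and 22.5 CPM in F.65weeks and 10.7, 10.7 and 50.5 CPM in M.65weeks. It rose 4.94-fold in females (log2 2.31, SE 0.14, adjusted p = 6.96e-06) and 4.64-fold in males (log2 2.21, SE 0.58, adjusted p = 0.0137). Replicate 3 of the 65-week males was 4.72 times the mean of the other 2, the widest gap of the 10 genes, and without it the male change was 1.09 on the log2 scale (SE 0.17, adjusted p = 0.000893). Without M.2weeks replicate 2 the male change was not called (log2 2.12, adjusted p = 0.0534). H2-Ob was at 10.7, 11.6 and 10.5 CPM in F.2weeks, 9.56, 9.29 and 8.20 CPM in M.2weeks, 84.4, 60.1 and 59.4 CPM in F.65weeks and 38.7, 30.7 and 127 CPM in M.65weeks. The change was 6.84-fold in females (log2 2.77, SE 0.15, adjusted p = 4.13e-06) and 7.71-fold in males (log2 2.95, SE 0.50, adjusted p = 0.00179), or 2.07 (SE 0.15) on the log2 scale in males without replicate 3.

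**Figure D2:**
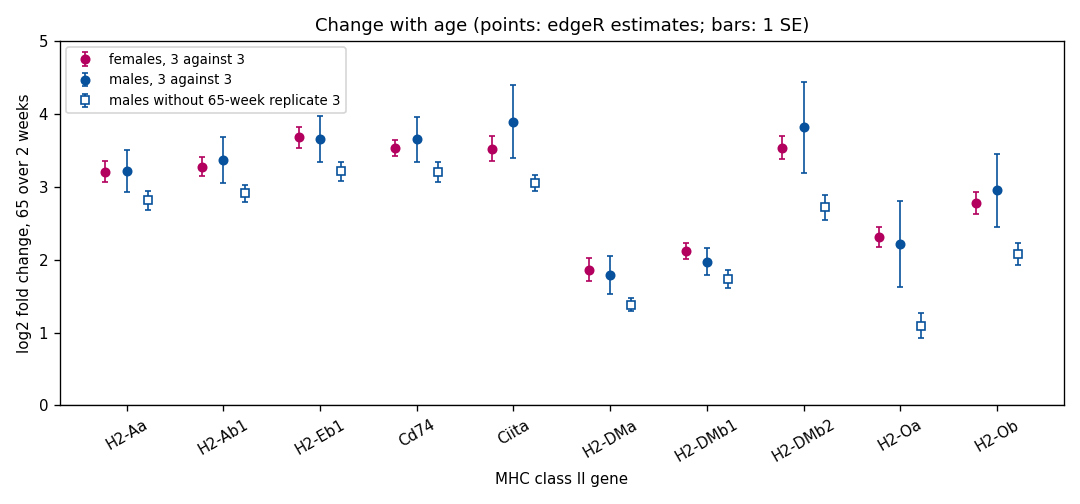
The log2 fold change of each class II gene from 2 to 65 weeks (points) with 1 SE (bars) in females, in males and in males without replicate 3 of the 65-week group. H2-DMa and H2-DMb1 have the smallest changes in females, 1.86 and 2.11, and H2-Oa moves most when the replicate is left out, from 2.21 to 1.09.

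Per kilobase of exon, Cd74 led in all 4 groups, apart from the next gene without overlap of the libraries. In F.2weeks it was at 134 ± 6.26 CPM per kb (SD, n = 3), followed by H2-Ab1 at 59.8 ± 8.31, H2-Eb1 at 46.9 ± 7.19 and H2-Aa at 44.9 ± 6.68 CPM per kb, neighbours whose libraries overlapped. After a gap came H2-DMb1 at 12.8 ± 1.50, H2-DMa at 8.88 ± 1.23, H2-DMb2 at 4.81 ± 0.384, H2-Oa at 3.74 ± 0.0857, H2-Ob at 2.01 ± 0.110 and Ciita at 0.771 ± 0.0857 CPM per kb, each apart from the next. In F.65weeks Cd74 was at 1417 ± 184 CPM per kb, and H2-Eb1 at 545 ± 70.5 and H2-Ab1 at 526 ± 64.0 CPM per kb overlapped, with H2-Aa below them at 377 ± 50.5. H2-DMb2 at 50.7 ± 10.8 CPM per kb and H2-DMb1 at 50.4 ± 1.72 overlapped, as did H2-Oa at 16.8 ± 2.72 and H2-Ob at 12.5 ± 2.62. Exon lengths were those of the union of all annotated exons. For H2-DMa and Ciita these can exceed the transcript that was measured. The longest transcript was 1254 bases for H2-Aa against a union of 4292, and 2759 against 5430 for H2-Ob. It was 1780 against 2596 for H2-Eb1 and 1208 against 1527 for H2-Oa. The order of H2-Aa beside H2-Eb1 and H2-Ab1, and of H2-Oa beside H2-Ob, can therefore change with the length used.

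The sexes were compared within each age. At 2 weeks 0 of the 10 members were called by edgeR, as were 0.0332% of 15081 genes, and 5 had an unadjusted p under 0.05, as had 17.8% of all genes. All 10 estimates were below 0 (lower in males), from −0.05 for H2-DMb1 to −0.70 for Ciita on the log2 scale. Every male library was below every female library for Cd74, Ciita, H2-DMb2 and H2-Ob, 4 of the 10 members, against 11.8% of genes. The estimates were −0.37 for Cd74 (SE 0.10, adjusted p = 0.213), −0.70 for Ciita (SE 0.13, adjusted p = 0.213), −0.45 for H2-DMb2 (SE 0.14, adjusted p = 0.229) and −0.29 for H2-Ob (SE 0.10, adjusted p = 0.235). DESeq2 called Cd74 (adjusted p = 0.0264) and Ciita (adjusted p = 0.00135) lower in males, where it called 2.53% of genes lower. For B cell markers, 10 of the 13 had an unadjusted p under 0.05 at this age and 0 were called, with a median log2 difference of −0.39. For neutrophil markers, 10 of 10 had an unadjusted p under 0.05 and every male library below every female library, with 0 called and a median of −0.54. Other lists had medians above 0, with 0 called. The median was 0.30 for monocyte and macrophage markers, with an unadjusted p under 0.05 for 5 of 13. It was 0.22 for genes of antigen processing in endosomes (5 of 11) and 0.31 for endothelial markers (3 of 14). The part of any of these lists in the class II values was not tested.

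At 65 weeks the comparison of the sexes turned on replicate 3 of the males. With all 6 libraries 0 of the 10 members were called by edgeR or by DESeq2, and 0 had an unadjusted p under 0.05, where edgeR called 0.042% of 14287 genes. The estimates, male over female, ran from −0.10 for H2-Ob to −0.31 for Ciita on the log2 scale, with adjusted p of 0.793 to 0.971. Replicate 3 was above all 3 females for each of the 10 genes, and replicates 1 and 2 were below all 3 females for each. Without replicate 3, 9 of the 10 were called lower in males, against 3.68% of 14700 genes, and all 10 were without overlap, against 22.5%. The estimates were then −0.39 for H2-DMb1 (SE 0.08, adjusted p = 0.0382), −0.54 for H2-Aa (SE 0.11, adjusted p = 0.0373), −0.61 for H2-Ab1 (SE 0.11, adjusted p = 0.0232), −0.65 for Cd74 (SE 0.11, adjusted p = 0.0200) and −0.66 for H2-Eb1 (SE 0.11, adjusted p = 0.0196). They were larger for H2-Ob at −0.95 (SE 0.19, adjusted p = 0.0279), Ciita at −1.12 (SE 0.16, adjusted p = 0.0111), H2-DMb2 at −1.22 (SE 0.18, adjusted p = 0.0123) and H2-Oa at −1.25 (SE 0.16, adjusted p = 0.00866). H2-DMa was not called, at −0.49 (SE 0.14, adjusted p = 0.0933). In the same comparison 8 of 13 B cell markers were called lower in males. So were 9 of 15 class I genes, 4 of 9 interferon gamma pathway genes, 3 of 8 plasma cell markers and 2 of 13 monocyte and macrophage markers. Of dendritic cell and T cell markers 0 were called. Neutrophil markers were called higher for 6 of 10 genes, against 1.97% of all genes. With all 6 libraries every male library was above every female library for 10 of 10 neutrophil markers (median 0.75, 10 with an unadjusted p under 0.05, 0 called). The part of any of these lists was not tested. The labels give no ground to leave replicate 3 out, and with 2 males the comparison rests on few libraries.

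**Figure D3:**
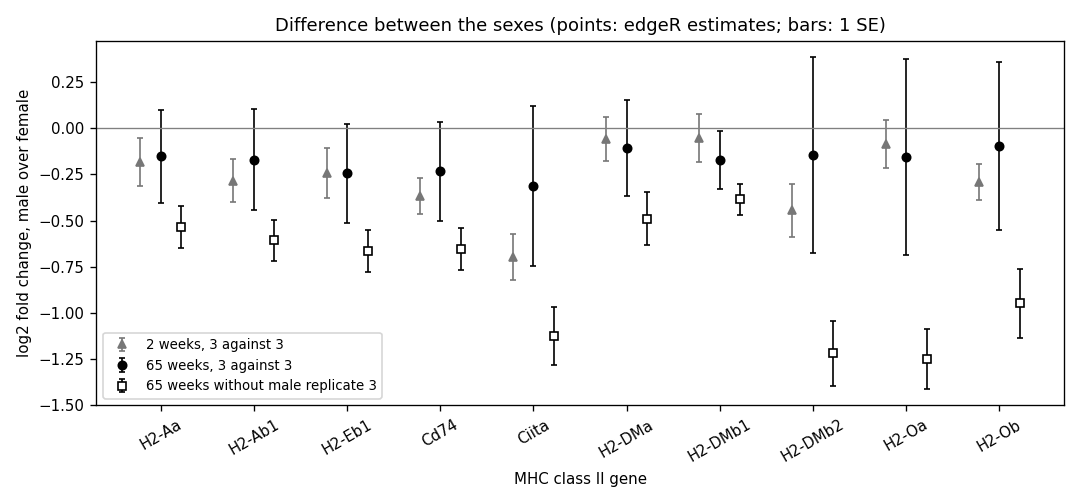
The log2 difference of each class II gene between males and females (points; values below 0 are lower in males) with 1 SE (bars) at 2 weeks, at 65 weeks and at 65 weeks without male replicate 3. At 65 weeks the estimates lie between −0.10 and −0.31 with all libraries and between −0.39 and −1.25 without the replicate.

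The gap between replicate 3 and its group was uneven within the family. The ratio of replicate 3 to the mean of replicates 1 and 2 was 2.05 for H2-Aa, 2.21 for H2-Ab1, 2.15 for H2-Eb1, 2.16 for Cd74, 2.05 for H2-DMa and 1.58 for H2-DMb1. It was 3.50 for Ciita, 3.67 for H2-Ob, 4.64 for H2-DMb2 and 4.72 for H2-Oa, so the last 4 set themselves apart from the other 6. Among 12756 genes at 1 CPM or more in 65-week males the median ratio was 1.08. B cell markers had a median of 3.26, from 0.688 for Ighm to 5.69 for Fcmr, with Cd79a at 3.51 and Cd22 at 4.66. The medians were 1.27 for dendritic cell markers, 1.32 for monocyte and macrophage markers, 0.666 for neutrophil markers and 1.13 for endothelial markers. Whether B cells or another source gave the class II RNA of this library was not tested.

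Whether the change with age differed between the sexes was tested as an interaction over the 12 libraries. It was called for 0 of the 10 members by edgeR and by DESeq2, and 0 had an unadjusted p under 0.05, where edgeR called 0.00635% of 15747 genes. The age change in males minus that in females ran from −0.14 for H2-DMb1 (SE 0.22, adjusted p = 0.819) to 0.36 for Ciita (SE 0.54, adjusted p = 0.815) on the log2 scale. Without replicate 3 of the 65-week males all 10 estimates were below 0. H2-Oa was then called, at −1.17 (SE 0.22, adjusted p = 0.0193), where 2.7% of genes were called lower. The next were H2-DMb2 at −0.77 (SE 0.25, adjusted p = 0.0940) and H2-Ob at −0.66 (SE 0.22, adjusted p = 0.107). Neutrophil markers had an unadjusted p under 0.05 in the interaction for 10 of 10 genes with all libraries (median 1.22, 0 called), where 11.9% of all genes had one, and 10 of 10 were called higher without replicate 3, against 1.96% of genes. Their part in the class II values was not tested. The age, sex and interaction comparisons share libraries and are not independent of each other.

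The balance within the family was followed by ratios of 2 members' counts in the same library, which the scaling of a library cannot change. Age was relabelled within each sex in a two-sided exact permutation test (400 relabelings, smallest possible p 0.005), and 5 of the 8 ratios passed after adjustment over the 8. The clearest shift was in the beta chains of H2-DM. The ratio of H2-DMb2 to H2-DMb1 was 0.368, 0.526 and 0.381 in F.2weeks, 0.271, 0.263 and 0.445 in M.2weeks, 1.34, 1.02 and 0.982 in F.65weeks and 0.687, 0.566 and 1.83 in M.65weeks. All 65-week libraries were above all 2-week ones. The ratio rose 2.72-fold (log2 1.45, exact permutation adjusted p = 0.01), and by 1.19 to 1.61 on the log2 scale when each library was left out in turn, called each time. The ratio of H2-Ob to H2-Oa, the chains of H2-O, was 1.88, 2.07 and 1.79 in F.2weeks, 1.83, 1.95 and 1.28 in M.2weeks, 2.78, 2.48 and 2.64 in F.65weeks and 3.63, 2.86 and 2.52 in M.65weeks. It rose 1.57-fold (log2 0.65, exact permutation adjusted p = 0.01), and the age groups did not overlap.

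Among the peptide-binding chains, H2-Eb1 rose more than H2-Ab1. The ratio of H2-Eb1 to H2-Ab1 was 0.775 to 0.867 in the 6 libraries of 2 weeks and 0.984 to 1.06 in the 6 of 65 weeks, a rise of 1.27-fold (log2 0.35, exact permutation adjusted p = 0.01). The ratio of H2-Aa to H2-Ab1, the chains of 1 molecule, moved least. It was 1.20 to 1.37 at 2 weeks and 1.17 to 1.26 at 65 weeks, a difference of −0.10 on the log2 scale (exact permutation adjusted p = 0.016) with overlapping age groups. The ratio of Cd74 to H2-Ab1 was 2.05 to 2.48 at 2 weeks and 2.46 to 2.66 at 65 weeks, a rise of 1.21-fold (log2 0.27, exact permutation adjusted p = 0.01). The ratios of H2-DMa to H2-DMb1 (log2 −0.25, adjusted p = 0.06), Ciita to H2-Ab1 (log2 0.30, adjusted p = 0.08) and H2-Oa to H2-DMa (log2 0.28, adjusted p = 0.23) did not pass the exact permutation test. The first of these passed without F.65weeks replicate 1 (adjusted p = 0.02, permutation test) or M.65weeks replicate 3 (adjusted p = 0.01), and the second without F.2weeks replicate 3 (adjusted p = 0.008).

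**Figure D4:**
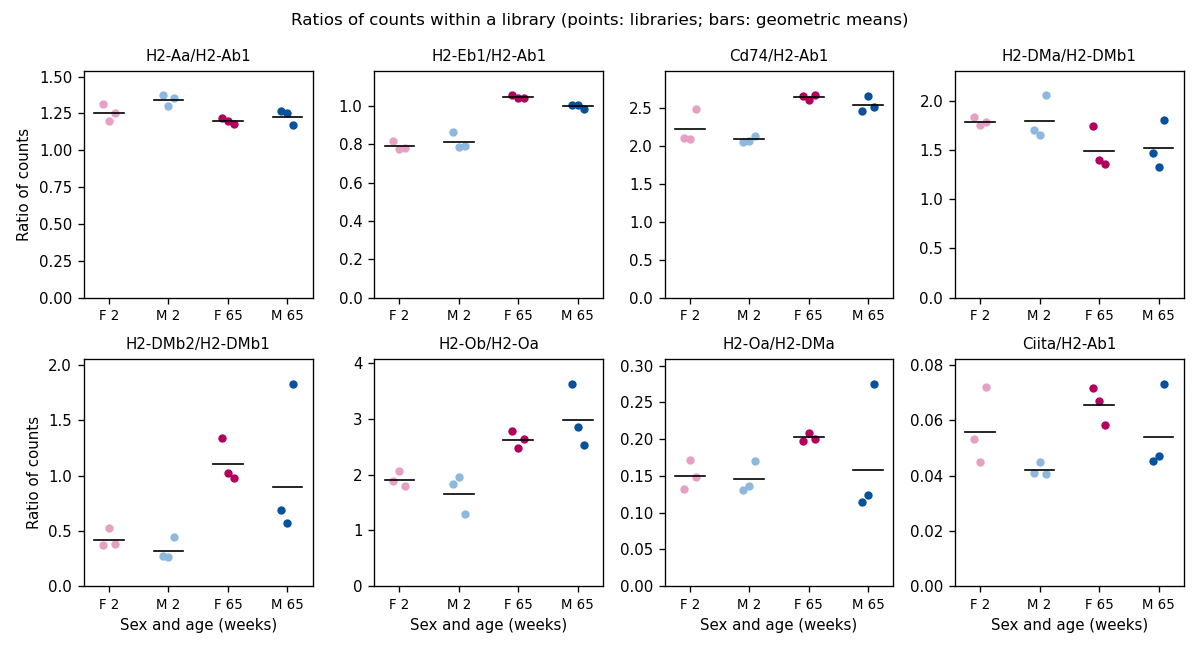
Ratios of counts of 2 class II genes within a library, with 1 point per library and a bar at the geometric mean of each group, by sex and age in weeks. The ratio of H2-DMb2 to H2-DMb1 rises from 0.263 to 0.526 at 2 weeks to 0.566 to 1.83 at 65 weeks, while that of H2-Aa to H2-Ab1 stays between 1.17 and 1.37.

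H2-Eb2, a second I-E beta gene beside H2-Eb1, had a larger estimate than any member. It was at 0.599, 0.885 and 0.757 CPM in F.2weeks, 0.696, 0.790 and 0.771 CPM in M.2weeks, 26.4, 20.9 and 24.1 CPM in F.65weeks and 14.3, 8.37 and 50.8 CPM in M.65weeks. The log2 fold change was 5.12 in females (SE 0.18, edgeR adjusted p = 1.50e-06) and 5.10 in males (SE 0.70, adjusted p = 0.000597), and replicate 3 of the 65-week males was 4.47 times the mean of the other 2. Without that replicate the male change was 4.04 (SE 0.29, adjusted p = 1.69e-05). No stretch of 100 bases in its longest transcript occurs whole in that of H2-Eb1.

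The gene lists that follow are to be read beside all genes tested, of which 30.2% were called higher and 29.5% lower in females, 27.0% and 28.5% in males, and 29.3% and 32.7% in males without replicate 3 of the 65-week group. The factors that bind class II promoters had smaller changes than Ciita. Of 8 genes for subunits of RFX and NF-Y and for CREB-type factors, 6 were called higher at 65 weeks in females and 4 in males, with 0 called lower and medians of 0.40 and 0.35 on the log2 scale. Without replicate 3, 5 were called higher in males (median 0.31). Nfya, a subunit of the Y box factor NF-Y, rose by 0.41 (SE 0.09) in females and 0.60 (SE 0.09) in males, and Atf1, a CREB-type factor, by 0.42 (SE 0.11) and 0.61 (SE 0.11). Creb1 rose by 0.61 (SE 0.07) in females. In males it rose by 0.35 (SE 0.10, edgeR adjusted p = 0.0201). That call was lost under scaling to library totals (edgeR adjusted p = 0.121) and without the low count filter (edgeR adjusted p = 0.0525). It was also lost without each 2-week male in turn. Rfx5, which binds the X box, was at 0.62 in females (adjusted p = 0.00169) and 0.20 in males (adjusted p = 0.57).

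In the interferon gamma pathway, which acts on Ciita, 9 of the 10 genes on the list were tested, and 5 were called higher in females and 2 in males, with 1 called lower in males. Without replicate 3, 2 were called higher and 2 lower in males. The counts of higher calls, 5 of 9 in females and 2 of 9 in males, stand beside 30.2% and 27.0% of all genes. Irf2 rose by 0.97 (SE 0.08) in females and 0.87 (SE 0.15) in males, and Irf1 by 0.68 (SE 0.09) and 0.61 (SE 0.14) on the log2 scale. Both encode transcription factors of the interferon response. Ifng itself was too low to test, at 0 to 0.264 CPM in the 12 libraries.

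Of 11 genes for antigen processing in endosomes, 9 were called higher and 2 lower in females, and 6 higher and 2 lower in males (5 and 2 without replicate 3). Ctss, the cathepsin that trims the invariant chain in antigen-presenting cells, rose by 1.97 (SE 0.10) in females and 1.37 (SE 0.16) in males. Ctsl, the cathepsin that does so in thymic epithelium, fell by 2.36 (SE 0.18) and 2.43 (SE 0.18). Marchf1, a ubiquitin ligase that takes class II molecules off the surface, rose by 2.08 (SE 0.08) in females and 1.66 (SE 0.27) in males. Of 15 class I genes matched, 12 were called higher and 0 lower in females, and 10 higher and 3 lower in males with and without replicate 3. The medians were 1.00 in females, 0.74 in males and 0.53 in males without the replicate on the log2 scale, beside 3.24, 3.29 and 2.76 for class II. H2-K1, a class I heavy chain, rose by 2.04 (SE 0.07) and 1.36 (SE 0.23), H2-D1 by 1.67 (SE 0.11) and 1.22 (SE 0.15), and H2-T23 by 1.43 (SE 0.11) and 1.45 (SE 0.13). Of 7 genes for co-stimulation or its inhibition, 6 were called higher in females and 5 in males, with 0 lower. Without replicate 3, 4 were called higher and 1 lower in males. Cd86, a co-stimulator, was not called in females (log2 0.16, edgeR adjusted p = 0.286). It was the gene called lower in males without replicate 3 (log2 −0.68, edgeR adjusted p = 0.0350). The largest changes were of Pdcd1lg2 at 4.13 (SE 0.33) and 4.04 (SE 0.47), Cd274 at 2.83 (SE 0.14) and 2.10 (SE 0.15) and Icosl at 1.98 (SE 0.15) and 2.57 (SE 0.16). All encode ligands read by T cells, and those of Pdcd1lg2 and Cd274 bind an inhibitory receptor. Without replicate 3 the male changes were 3.44 (SE 0.30) for Pdcd1lg2, 2.00 (SE 0.14) for Cd274 and 2.40 (SE 0.13) for Icosl. With all libraries no gene of these lists or of the marker lists was called in a comparison of the sexes or in the interaction.

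Markers of the cells that express class II stood beside these values as follows. The summed level of 13 B cell markers was 692 to 794 CPM in F.2weeks, 545 to 636 CPM in M.2weeks, 7524 to 19309 CPM in F.65weeks and 9044 to 11328 CPM in M.65weeks. Without Ighm, the most abundant, it was 339 to 391, 279 to 319, 1091 to 1565 and 495 to 2021 CPM. None of the 13 was at 0 in any library, and 12 were called higher with age in each sex, among them Ms4a1 and Pax5. Ebf1 was not called with all libraries, and was called lower in males without replicate 3 (log2 −0.99). Of 11 dendritic cell markers, 4 were called higher and 1 lower in females and 6 higher and 2 lower in males with and without replicate 3, with sums of 106 to 136, 111 to 125, 195 to 243 and 176 to 247 CPM in the same order of groups and none at 0. Itgax rose by 2.52 (SE 0.14) in females and 2.35 (SE 0.13) in males, Ccr7 by 2.84 (SE 0.16) and 2.91 (SE 0.45), and Zbtb46, a factor of conventional dendritic cells that endothelium also expresses, fell by 1.55 (SE 0.14) and 1.37 (SE 0.21). Of 13 monocyte and macrophage markers, 11 were called higher and 1 lower in females and 7 higher and 1 lower in males (6 and 1 without replicate 3), with sums of 4715 to 5577, 4913 to 6375, 8395 to 11610 and 8535 to 10326 CPM and none at 0. T cell markers were called higher for 9 of 10 genes in females and 8 in males, with 0 and 1 called lower. Plasma cell markers were called higher for 6 of 8 genes in females and 5 in males, with 1 and 2 called lower. Neutrophil markers were called higher for 9 of 10 and 10 of 10, with 0 lower. These counts in males, and the 14 of 14 endothelial markers called lower, were the same without replicate 3. The part of any of these cells, or of endothelial cells, in the class II values was not tested.

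**Figure D5:**
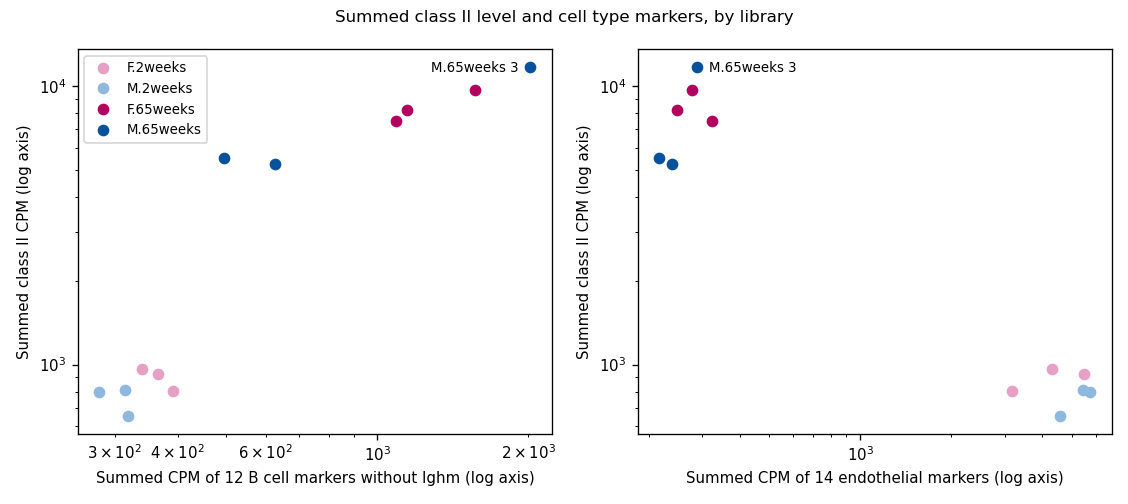
Summed CPM of the 10 class II genes (vertical, log axis) against the summed CPM of 12 B cell markers without Ighm (left) and of 14 endothelial markers (right), both log axes, with 1 point per library coloured by group. M.65weeks replicate 3 is highest for both class II (11719 CPM) and the B cell markers (2021 CPM), and the 65-week libraries lie at low endothelial levels.

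Within the groups the members varied together over the 12 libraries, and less so without the 65-week males. After the mean of each group was taken from log2 CPM, the 45 pairs of members had a median Pearson r of 0.895 over the 12 libraries, with a lowest r of 0.657. Over the 9 libraries without the 65-week males the median was 0.551 and the lowest −0.349, a lower likeness than with that group. With H2-Ab1, r over the 12 libraries was 0.991 for H2-Eb1, 0.990 for H2-Aa, 0.974 for Cd74, 0.939 for H2-DMb2, 0.917 for H2-Oa, 0.895 for H2-Ob, 0.881 for Ciita, 0.840 for H2-DMa and 0.657 for H2-DMb1. Over the 9 libraries H2-Eb1 and H2-Aa stayed at 0.976 and 0.979, whereas Ciita was at 0.320 and H2-DMb1 at −0.08. There were 9598 protein-coding genes at sufficient level. Apart from the members, those most like H2-Ab1 in this respect were Card6 (r = 0.979), Grap (r = 0.977), Gimap4 (r = 0.975), Uri1 (r = 0.974) and Pogk (r = 0.969). The group means of these genes did not share the change of the family, as Card6 went from 18.2 to 35.4 CPM and Gimap4 from 103 to 57.6 CPM in females. The libraries differ in depth and in cell markers. These values were not adjusted for cell makeup, and they carry no test.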

How the data were processed

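Paired-end reads of 100 bases were made on an Illumina HiSeq instrument from 12 libraries of selected BECs. The authors deposited 1 table of raw read counts per gene. The submitters' processing notes name mm9, TopHat2 and HTSeq, whereas the study's methods name GRCm39, STAR and featureCounts, and it is not known which made this table. The labels name polyA RNA and a total RNA kit. Ensembl identifiers were paired with symbols through GENCODE M39 (31052 of 37620 found). Psmb9 of the class I list was not matched. Promoter sequences came from RefSeq (GRCm38.p6).

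Libraries were grouped by the labels' age and sex. Counts were tested with edgeR 4.0.16 (quasi-likelihood F test, TMM scaling, filterByExpr with a minimum count of 10, Benjamini-Hochberg adjustment over all genes, threshold 0.05), with only the libraries of the groups compared and no covariate; the interaction used all 12. Ages were compared within each sex, and sexes within each age. Ratios of members had 0.5 added to each count. No 2 libraries agreed within sampling noise (chi-square per degree of freedom 26.6 to 102.5). Totals of 26044743 to 44569600 counts set the counting error. The test was also run on simulated counts, with an outcome not reported here. Far fewer genes were changed there than were called with age, so that run does not cover the scaling of the age comparisons. Alternatives were DESeq2 1.42.0, RLE scaling, library totals, no filter, a replicate block, 1 model for 12 libraries, and each library left out. The 10 members were named throughout. From each pathway list up to 3 genes were named, those with the largest changes among those called in both sexes in the same direction. For likeness, the 5 protein-coding genes with the highest correlation with H2-Ab1 were named. Other genes were named after their values were seen. The members and lists were chosen with earlier results of these data known. The authors' 12-week libraries were not analysed here. Values of some single genes on the lists are not reported here.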

Additional observations from a re-analysis of the deposited data

How the results depend on the processing

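All 10 members were called higher with age in both sexes under DESeq2, RLE scaling, library totals, no filter, the replicate block and 1 model for 12 libraries, and 9 or 10 with each library left out. Library totals shifted the median of all genes from 0.01 to −0.13 in females and −0.11 in males on the log2 scale. DESeq2 called 2 members lower in males at 2 weeks against 0. The same replicate numbers did not pair the libraries (correlations of deviations −0.331 to 0.128), and a replicate block called 10, 10, 0, 0 and 0 members in the age (females, males), sex (2 and 65 weeks) and interaction comparisons, as did the fit without it.

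With each library left out in turn, 0 to 9 members were called between the sexes at 65 weeks and 0 to 1 in the interaction. Log2 differences whose sign changed were, at 2 weeks between the sexes, H2-DMa (−0.18 to 0.0335) and H2-DMb1 (−0.16 to 0.0319). At 65 weeks between the sexes they were H2-Aa (−0.54 to 0.0249), H2-Ab1 (−0.61 to 0.0263), H2-DMa (−0.49 to 0.0834), H2-DMb2 (−1.22 to 0.23), H2-Oa (−1.25 to 0.21) and H2-Ob (−0.95 to 0.25). In the interaction they were H2-Aa (−0.35 to 0.17), H2-Ab1 (−0.32 to 0.27), H2-Eb1 (−0.42 to 0.15), Cd74 (−0.29 to 0.30), Ciita (−0.43 to 0.65), H2-DMa (−0.43 to 0.11), H2-DMb2 (−0.77 to 0.64), H2-Oa (−1.17 to 0.25) and H2-Ob (−0.66 to 0.50). The interaction of H2-Eb1 was also 0.0139 under library totals against −0.02. The lowest values at 65 weeks and in the interaction came without M.65weeks replicate 3. The cause was not tested. Depth limits the members least at 65 weeks and most for H2-Oa and Ciita at 2 weeks.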
